A study of Mus musculus with 12 samples.

Results

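Circular RNAs (circRNAs) of serine/threonine kinase genes were taken from a table of back-spliced RNA in mouse liver. They comprised 269 of the 16445 circRNAs in the table (1.64%). A circRNA was counted when it lay inside a protein-coding gene of the GENCODE M21 annotation (GRCm38), had at least 1 end on an exon boundary of that gene, and the gene name followed a kinase pattern. The pattern took the gene symbols that open with Mapk, Map2k, Map3k, Map4k, Stk, Mark, Taok, Cdk, Ulk, Camk or Csnk followed by a digit. It matched 127 genes, of which 55 (43.3%) had a circRNA. A symbol does not guarantee a kinase: 22 matched genes do not encode one, and 5 of the 269 circRNAs came from such genes, Cdk5rap1 and Cdk5rap2. The other 264 came from 53 kinase genes.

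The libraries came from livers of 12 mice, given as separate animals of strain C57BL/8 in the labels. In the 6 PZH mice, injections of carbon tetrachloride (CCl4) were combined with PZH, the Chinese herbal medicine Pien Tze Huang, given once daily at 25 mg/ml in weeks 2 to 8. The 6 Control mice had the CCl4 injections without PZH. Both groups had the same CCl4 dosing, a toxin model of liver fibrosis: a 10% preparation, 10 µl per 10 g of body weight, 2 times a week, with livers taken after 8 weeks. Livers without CCl4 were not analysed here. The comparison asks what PZH adds to circRNA levels in livers given CCl4. The labels give no age or sex for the animals.

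A circRNA is a closed loop that forms when a splice donor joins an acceptor lying upstream of it in the same transcript, and reads that cross this back-splice junction measure it. Most such loops come from inner exons of protein-coding genes, and they lack the free ends at which linear mRNA is degraded. The host genes here act in phosphorylation cascades. MAP4K kinases sit above the MAP3K, MAP2K and MAPK tiers, and TAOK kinases, which are also related to Ste20, act at the MAP3K tier. Through these tiers liver cells respond to growth factors, cytokines and oxidative stress. MST kinases (the Stk3 and Stk4 products) begin the Hippo pathway that restrains liver growth, CDKs drive the cell cycle and transcription, ULK kinases start autophagy, and CAMK and CSNK1 kinases respond to calcium and act in Wnt signalling. A back-splice junction value says nothing of the amount of the linear mRNA or of the kinase protein.

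The junctions of the most abundant circRNAs and of those with the smallest unadjusted p in each direction are shown because the results turn on them. The last 15 bases of the donor exon are in lower case and the first 15 bases of the acceptor exon in capitals, 5′ to 3′ on the strand of the gene, from the GENCODE M21 transcripts (GRCm38).
Cdk12 exons 5 to 7: ggcaagaaaaaatagATAGCAGCAGCAGGG
Map4k5 exons 19 to 21: gcaactatggaacagAAACCAACCATCAAT
Camk2d exons 10 to 12: cgagaaatttttcagTTTCCGTCACCAGAA
Map4k3 exons 4 to 6: caccgagatataaagGCGAGATAAACTTTG
Cdk17 exons 12 to 14: acaaaatttcttcagGGGAGTTGGCTGTAT
Cdk14 exons 3 to 4: caaagggaaaagcaaATATGTGTCACAAAG
Ulk2 exons 21 to 22: gagacactgatggagCTCCTGCAGGAGCCT
Mark3 exons 2 to 3: acaagtctacaaaagCACATTTCACATGGA

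A second set of junctions shows how circRNAs of 1 gene share an end. It was chosen after values were seen.
Map3k3 exons 2 to 4: tatatgaataatgagATGAACAAGAGGCAT
Map3k3 exons 2 to 5: caagacagaaaccatATGAACAAGAGGCAT
Map3k3 exons 2 to 6: ggcacctgtctgtcaATGAACAAGAGGCAT
Map3k3 exons 3 to 6: ggcacctgtctgtcaAGTGACGTCAGAATC
Map3k3 exons 5 to 6: ggcacctgtctgtcaCTCTCCATCCTGTTG
Map2k4 exons 2 to 3: ataatggcagttaaaGTAAGCGCAAAGCAC
Map2k4 exons 2 to 4: gcactcttcagagagGTAAGCGCAAAGCAC
Mark3 exons 2 to 5: aatatgcaagtggagCACATTTCACATGGA

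The first 3 Map3k3 circRNAs have the same acceptor, the start of exon 2, and the last 3 have the same donor, the end of exon 6. The Map2k4 pair shares the start of exon 2, and so do the 2 Mark3 circRNAs. Circles that share an end use the same splice site.

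The Map4k5 circle is the kinase circRNA with the smallest p among those with lower values in PZH livers. It joins 3 exons of 42, 85 and 80 bases, 207 bases in all, shown with the middle exon in capitals.
Map4k5 exons 19 to 21: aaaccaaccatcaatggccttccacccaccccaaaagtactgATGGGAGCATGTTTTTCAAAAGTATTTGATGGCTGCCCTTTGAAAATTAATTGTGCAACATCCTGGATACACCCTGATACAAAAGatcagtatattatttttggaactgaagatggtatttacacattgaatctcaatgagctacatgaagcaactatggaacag

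The values are SRPBM, a unit used in this field for back-spliced reads scaled to the reads of a library. In that usage a value is per junction and does not depend on the length of the circle. The formula used for these values is not given in the sources used here. Summed over the whole table, the libraries held 31472 to 41080 SRPBM in PZH and 28922 to 40927 SRPBM in Control. If the smallest value of a library stands for 2 read pairs, these sums equal 92559 to 129699 read pairs in PZH and 80442 to 130487 in Control, and 1 SRPBM equals 2.78 to 3.43 read pairs. By library, 56.8% to 63.8% of the low values lay near a whole number of such read pairs, so these equivalents are rough. Kinase circRNAs made up 1.76% ± 0.05 of the summed signal in PZH livers and 1.84% ± 0.08 in Control livers (mean ± SD of n = 6 each). Between 86 and 104 of them were above 0 in a PZH library and between 71 and 97 in a Control library. In the whole table, 4439 to 5510 circRNAs were above 0 in a PZH library and 3735 to 5500 in a Control library. The kinase share of these was 1.85% ± 0.14 in PZH and 1.81% ± 0.12 in Control (mean ± SD of n = 6 each). Host genes that mark hepatocytes were well represented: 11 of 13 had a circRNA, without Slc10a1 and Ttr, and their sum was 432 to 561 SRPBM in PZH and 380 to 530 in Control. The mean was higher in PZH for 7 of the 11 genes and lower for 4, Cps1, Cyp2j5, Hnf4a and Trf. For Aass, at 31.0 to 73.9 SRPBM in PZH and 18.6 to 29.8 in Control, the groups did not overlap. Of stellate cell markers 1 of 6 had a circRNA, Reln, with 4.12 to 11.7 SRPBM in PZH and 0 to 3.32 in Control, groups that did not overlap. Lrat, Pdgfrb, Dcn, Col1a1 and Des had none listed. Macrophage markers (4 of 6 genes, without Cd5l and Clec4f) summed to 40.6 to 65.7 SRPBM in PZH and 34.0 to 56.6 in Control. The PZH sum was that of Adgre1 alone, since Csf1r, Marco and Ptprc were listed at 0 in every PZH library and were above 0 in 1 Control library each. Endothelial markers (5 of 6, without Kdr) summed to 25.0 to 34.5 in PZH and 31.2 to 54.9 in Control. All 5 genes had a lower PZH mean, but 3 of them were low and differed little. Pecam1 had medians of 1.79 in PZH and 1.73 in Control, and Stab2 of 2.07 and 1.63. Flt1 was above 0 in 2 libraries of each group. Most of the sum was Dock4, at 21.3 to 28.3 SRPBM in PZH and 18.1 to 40.0 in Control. Plxnd1 was above 0 in 2 PZH and 5 Control libraries. Pkhd1, the cholangiocyte marker of 5 with circRNAs, had 3.88 to 12.5 in PZH and 0.88 to 14.7 in Control. The part of these marker values in the kinase results below was not tested, and in whole liver fewer cells of a type and less RNA per cell cannot be told apart.

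Kinase circRNAs were mostly rare. Of the 269, 111 (41.3%) were above 0 in 1 library, against 44.2% of the whole table. The 21 above 0 in all 12 libraries (7.81%, against 6.62% of the table) carried 68.9% of the kinase signal, and the 10 most abundant carried 54.4%. The 78 above 0 in at least 6 libraries were tested, from 35 host genes. The 191 others were above 0 in 1 to 5 libraries and were not tested. Of the 78, 57 were listed at 0 in at least 1 library. A value listed at 0 may be a junction with too few reads to be listed, so levels of such circRNAs are given by library and without a mean.

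**Figure D1:**
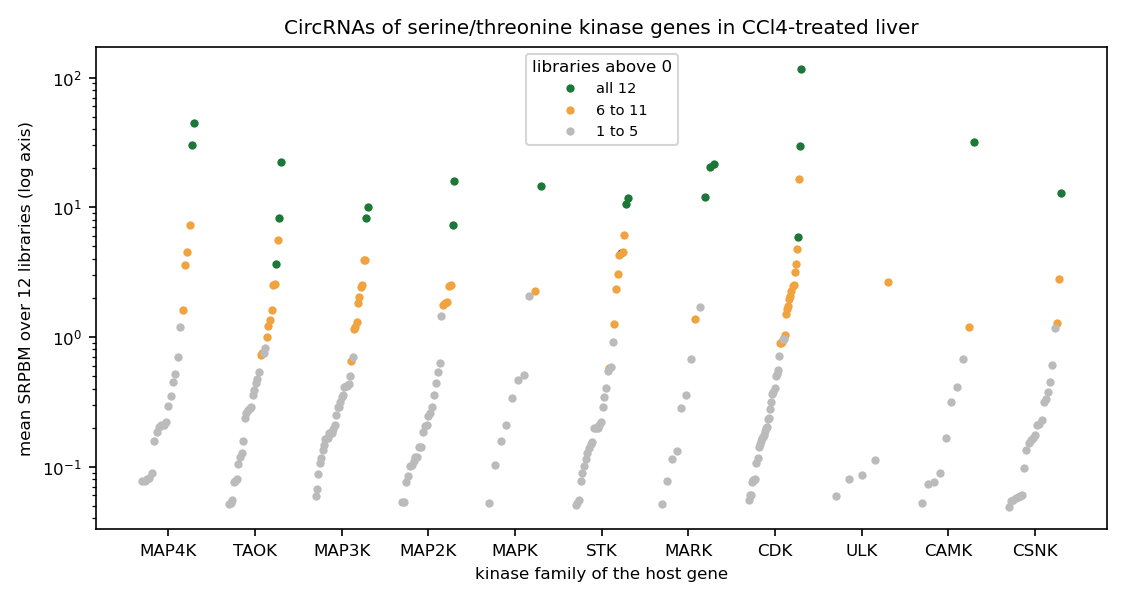
Each point is 1 of the 269 kinase circRNAs, placed by the family of its host gene (horizontal axis) and its mean SRPBM over the 12 libraries (vertical axis, log scale); colours give the number of libraries above 0. The highest point of the CDK family is the Cdk12 circRNA of exons 5 to 7, and most points in each family are circRNAs above 0 in 1 to 5 libraries.

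In the upper tiers of the cascade, all 5 MAP4K genes of the annotation had circRNAs, 23 in all, which carried 15.1% of the kinase signal. Their sum was 89.0 ± 12.7 SRPBM in PZH livers and 105 ± 16.5 in Control livers (mean ± SD of n = 6 each). The 3 TAOK genes, whose products activate MAP2Ks and respond to DNA damage and microtubule changes, gave 34 circRNAs with a sum of 54.2 ± 9.27 SRPBM in PZH and 61.1 ± 11.3 in Control. The most abundant circle of the MAP4K family came from Map4k5 and that of the TAOK family from Taok2.

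In the middle tiers, 7 of 19 MAP3K genes had 39 circRNAs and 4 of 7 MAP2K genes had 29. The MAP3K sum was 46.2 ± 8.55 SRPBM in PZH and 46.2 ± 11.2 in Control, and the MAP2K sum was 43.2 ± 5.46 in PZH and 35.9 ± 8.71 in Control (mean ± SD of n = 6 each). The lowest tier was thinly covered: 3 of 18 MAPK genes gave 10 circRNAs. For both of these sums the ranges of the groups overlapped.

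Outside the cascade, the CDK family had the most circRNAs, 50 from 11 of 26 matched genes, Cdk5rap1 and Cdk5rap2 included. The totals of genes in each family count every matched symbol, also those that do not encode a kinase. STK genes gave 32 circRNAs (9 of 22 genes) with 53.5 ± 7.71 SRPBM in PZH and 55.1 ± 5.33 in Control. MARK genes, whose products phosphorylate microtubule-associated proteins, gave 12 (3 of 4 genes) with 59.3 ± 8.95 in PZH and 58.2 ± 13.6 in Control. CAMK genes gave 10 (3 of 10) with 38.2 ± 10.8 in PZH and 31.3 ± 6.73 in Control, and CSNK genes 25 (5 of 9) with 20.6 ± 5.53 in PZH and 23.5 ± 8.59 in Control (mean ± SD of n = 6 each throughout). ULK genes gave 5 circRNAs (2 of 4 genes), above 0 in 6 PZH and 3 Control libraries.

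The most abundant kinase circRNA was Cdk12 exons 5 to 7 (chr11:98263470-98267858, plus strand), of rank 21 in the whole table. Its value ran from 108 to 137 SRPBM with a median of 114 in PZH libraries, and from 82.2 to 137 with a median of 115 in Control libraries. The groups overlapped almost wholly, at 120 ± 13.2 SRPBM in PZH livers and 113 ± 21.2 in Control livers (mean ± SD of n = 6 each). The log2 fold change was 0.11 (SE 0.13; limma, adjusted p = 0.875). This circle alone made up 18.1% of the kinase signal. Cdk12 encodes a kinase that phosphorylates the tail of RNA polymerase II, but the junction matched a noncoding transcript listed under Cdk12 and no coding one. It starts 13084 bases after the end of the Cdk12 coding sequence at position 98250386 and so holds no exon that codes for the kinase.

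Without that circle the kinase sum was 519 ± 66.0 SRPBM in PZH and 533 ± 63.0 in Control, against 640 ± 76.0 in PZH and 646 ± 74.4 in Control with it (mean ± SD of n = 6 each). The CDK share of the kinase signal was 32.5% with it and 17.5% without it. The coding exons of Cdk12 gave low circles. Exons 3 to 6 (chr11:98219074-98224631) were above 0 in 5 PZH and 3 Control libraries with medians of 1.69 SRPBM in PZH and 0.31 in Control. Their fold change was 1.04 on the log2 scale (SE 0.53; adjusted p = 0.664). Exons 7 to 9 (chr11:98230113-98236782) were above 0 in 4 PZH and 2 Control libraries (0.89, SE 0.58; adjusted p = 0.727). Among the 10 most abundant circles, that of Cdk12 stood well above the others in every library.

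The next in level came from Map4k5, an activator of the JNK branch (exons 19 to 21, chr12:69823422-69825783, minus strand). PZH libraries ran from 29.8 to 47.8 SRPBM with a median of 34.4, and Control libraries from 40.4 to 74.0 with a median of 50.4. In 4 of 6 PZH libraries the value was below every Control library, and the other 2 lay within the Control range. The log2 fold change was -0.49 (SE 0.17), with an unadjusted limma p of 0.00760 and an adjusted p of 0.467. The adjusted p ran from 0.112 to 0.704 over the alternative settings. The circle of Map4k3, a relative that signals amino acid supply to mTORC1 (exons 4 to 6, chr17:80653862-80655921), had 29.3 ± 4.14 SRPBM in PZH and 31.1 ± 7.31 in Control (mean ± SD of n = 6 each). Its log2 fold change was -0.06 with a 95% interval of -0.44 to 0.31.

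Camk2d encodes the delta subunit of calcium/calmodulin-dependent kinase II, and its circle (exons 10 to 12, chr3:126796838-126798280) ran from 20.9 to 47.2 SRPBM in PZH and from 17.1 to 36.1 in Control. Its means of 34.1 ± 9.81 in PZH and 29.4 ± 6.55 in Control (mean ± SD of n = 6 each) differed by less than 1 SD. The circle of Cdk17, a kinase of the PCTAIRE group (exons 12 to 14, chr10:93235438-93236963), ran from 23.2 to 33.6 SRPBM in PZH and from 23.0 to 42.6 in Control, with a fold change of -0.30 on the log2 scale (SE 0.18; adjusted p = 0.710). Taok2 exons 5 to 8 (chr7:126878723-126879452) had 12.3 to 24.1 SRPBM in PZH and 15.6 to 32.0 in Control, with -0.38 (SE 0.23; adjusted p = 0.710). In Cdk17 and Taok2 the PZH median lay below the Control median while the ranges overlapped.

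Mark3 gave 2 circles of nearly equal level from the same acceptor. Exons 2 to 3 (chr12:111592577-111604564) had 14.6 to 24.3 SRPBM with a median of 18.2 in PZH, and 19.8 to 29.7 with a median of 24.0 in Control. Exons 2 to 5 (chr12:111592577-111618383) had 17.4 to 28.4 with a median of 21.3 in PZH, and 10.96 to 29.0 with a median of 19.5 in Control. The log2 fold changes were -0.39 (SE 0.20; adjusted p = 0.654) for the shorter circle and 0.24 (SE 0.25; adjusted p = 0.867) for the longer one. The shorter circle holds 246 bases of exon and the longer 361.

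Cdk8, the kinase of the Mediator complex, had a circle of exons 2 to 4 (chr5:146259505-146271735) at 12.2 to 27.3 SRPBM in PZH with a median of 15.7. In Control it ran from 12.1 to 24.9 SRPBM in 5 libraries and was listed at 0 in Control replicate 2. Its log2 fold change of 0.67 (SE 0.62; adjusted p = 0.835) rested on that entry and became -0.15 without that library. Map2k1, which encodes MEK1 of the MAPK cascade, closed the 10 most abundant with exons 2 to 5 (chr9:64204431-64214609) at 15.6 ± 2.11 SRPBM in PZH and 16.3 ± 4.62 in Control (mean ± SD of n = 6 each). The fold change of Map2k1 was -0.03 on the log2 scale (95% interval -0.50 to 0.44).

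**Figure D2:**
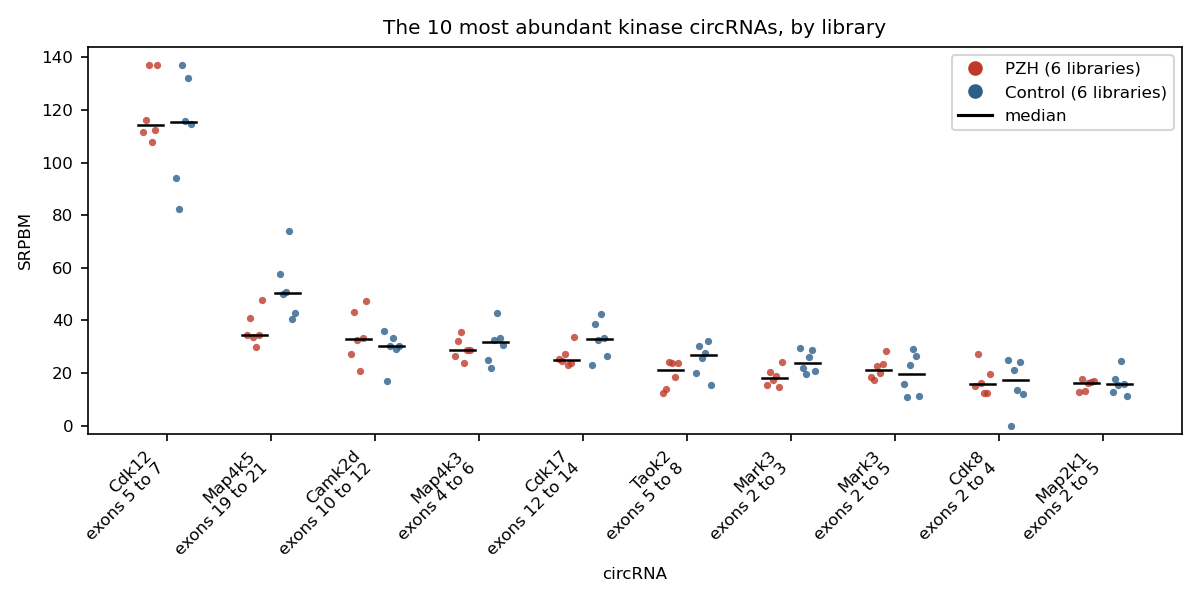
SRPBM of the 10 most abundant kinase circRNAs (vertical axis) for each of the 6 PZH libraries (red, left) and 6 Control libraries (blue, right), with the median of each group as a black line. The groups overlap for each circRNA, and for Map4k5 4 PZH points lie below every Control point.

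Lower in level, the leading circles of other families also overlapped between the groups. Stk3, which encodes MST2 of the Hippo pathway, gave exons 2 to 4 (chr15:35099434-35115645) at 11.7 ± 2.60 SRPBM in PZH and 11.8 ± 2.72 in Control (mean ± SD of n = 6 each). Csnk1g3, a membrane-bound casein kinase 1, gave exons 2 to 4 (chr18:53895531-53906669), a circle that includes the start codon, at 12.4 ± 3.32 SRPBM in PZH and 13.1 ± 5.23 in Control.

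Among the MAP3Ks, Map3k21, a mixed-lineage kinase, led with exons 2 to 4 (chr8:125924018-125927706) at 9.79 ± 2.69 SRPBM in PZH and 10.4 ± 2.48 in Control. Map3k5, which encodes ASK1, a kinase activated by oxidative stress, followed with exons 11 to 14 (chr10:20067829-20082468; named after values were seen) at 9.18 ± 2.07 in PZH and 7.25 ± 3.24 in Control (mean ± SD of n = 6 each). The log2 fold changes were -0.10 (SE 0.29) for Map3k21 and 0.39 (SE 0.32) for Map3k5, both within their replicate spread. Map2k5, which encodes MEK5, the activator of ERK5, gave exons 8 to 11 (chr9:63293524-63322267) at 4.76 to 15.4 SRPBM in PZH and 2.87 to 8.85 in Control. That circle had the highest log2 fold change of the 21 above 0 in every library, 0.60 (SE 0.37; adjusted p = 0.710).

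Across the 78 tested kinase circRNAs, 0 were higher and 0 lower in PZH livers at an adjusted p under 0.05 (limma, adjusted over all 3870 circRNAs tested). Over all tested circRNAs the shares were 0.0517% higher and 0% lower. At an unadjusted p under 0.05, 5 kinase circRNAs were higher (6.41%, against 4.55% of all) and 1 was lower (1.28%, against 3% of all). In either direction they were 6 of 78, or 7.69%, against 7.55% of all, so the share was near the background. By an exact rank-sum test, 6 were higher and 3 lower at an unadjusted p under 0.05. That test could give no adjusted call at its smallest p of 0.00216, which 26 circRNAs had where 168 were needed. The smallest adjusted p of a kinase circRNA was 0.408. Without PZH replicate 2 the number higher at an unadjusted p under 0.05 was 2. Without PZH replicate 1 or 5 or Control replicate 2 or 3 that number was 3. The number lower was 2 without PZH replicate 6 or Control replicate 1, 2, 3 or 4, and 3 without Control replicate 6.

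Fold changes were spread evenly around 0: 38 of the 78 were above 0 (48.7%, against 54.3% of all) and 40 below. Their median was -0.01 on the log2 scale, against 0.06 for all tested circRNAs, with quartiles of -0.28 and 0.38 for the kinase circRNAs and -0.33 and 0.45 for all. Precision was better for circRNAs without entries at 0. The median SE was 0.27 for the 21 circRNAs above 0 in every library and 0.67 for the 57 with entries at 0. The 21 had fold changes from -0.49 to 0.60 and a median of -0.03.

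**Figure D3:**
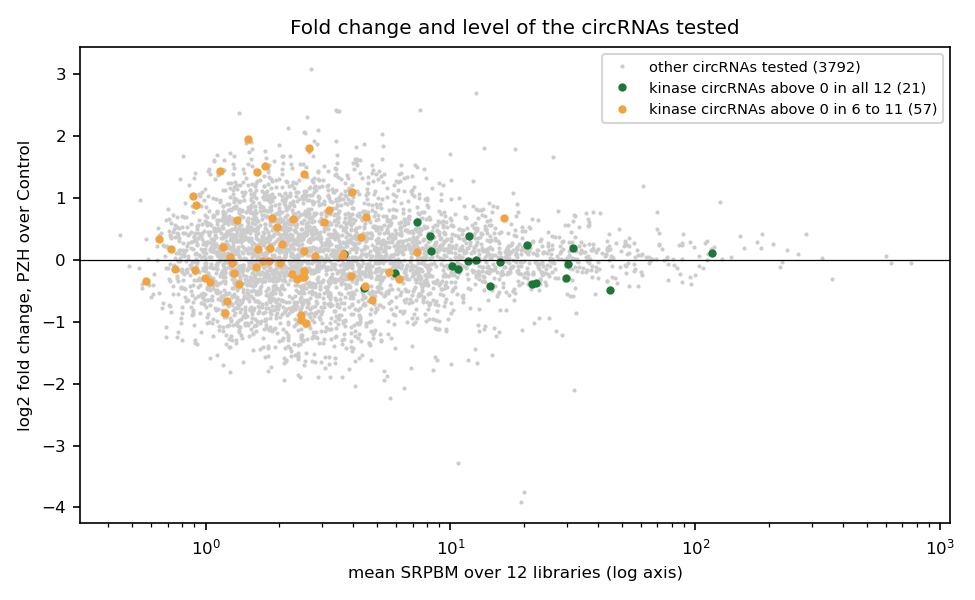
Log2 fold change of PZH over Control (vertical axis) against mean SRPBM over the 12 libraries (horizontal axis, log scale) for the 78 kinase circRNAs (green, above 0 in all 12 libraries; orange, in 6 to 11) and the other tested circRNAs (grey). The kinase circRNAs lie within the grey cloud, and those above 0 in all 12 libraries lie between -0.49 and 0.60.

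The 5 circRNAs with higher values and an unadjusted p under 0.05 were all low and mostly listed at 0 in Control libraries. The smallest p was that of Cdk14, a kinase that pairs with cyclin Y in Wnt signalling (exons 3 to 4, chr5:5227164-5249228, minus strand). It ran from 0.91 to 5.32 SRPBM with a median of 2.19 in the 6 PZH libraries, and was 1.41 SRPBM in 1 Control library and listed at 0 in the other 5. The log2 fold change was 1.96 (SE 0.57), with an unadjusted limma p of 0.00249 and an adjusted p of 0.408. The adjusted p ran from 0.296 to 0.651 over the alternative settings.

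Ulk2, an autophagy-starting kinase, showed a like pattern (exons 21 to 22, chr11:61787429-61791583). PZH libraries ran from 0.68 to 7.06 SRPBM with a median of 4.05, and 2 Control libraries had 3.40 and 3.55 while 4 were listed at 0. The log2 fold change was 1.81 (SE 0.71; unadjusted p = 0.0186, adjusted p = 0.566). The lowest PZH value was below both Control values above 0, so the groups overlapped.

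Map3k3 encodes MEKK3, a kinase of the ERK5 and p38 branches, and its circle of exons 2 to 5 (chr11:106096991-106117603) was above 0 in 5 PZH libraries and 1 Control library. The PZH values reached 4.25 SRPBM with a median of 1.89, and the Control value was 1.89. Its log2 fold change was 1.44 (SE 0.58; unadjusted p = 0.0223, adjusted p = 0.573). Map2k4, which encodes MKK4, an activator of JNK and p38, had exons 2 to 3 (chr11:65735192-65756371) at 0.93 to 4.76 SRPBM in 6 PZH libraries, and at 0.67 and 4.54 in 2 Control libraries (1.52, SE 0.66; unadjusted p = 0.0313, adjusted p = 0.605). Map4k2, a germinal centre kinase, had exons 4 to 7 (chr19:6341903-6342786) at 2.49 to 3.48 SRPBM in 5 PZH libraries, and at 1.63 and 2.50 in 2 Control libraries (1.42, SE 0.66; unadjusted p = 0.0450, adjusted p = 0.639). In all 3 the highest Control value lay within the PZH range.

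Counted as libraries above 0, 2 of the 88 kinase circRNAs above 0 in at least 5 libraries were seen in 5 or more PZH libraries and at most 1 Control library, those of Cdk14 and Map3k3. The reverse held for 0. Over the whole table the share was 0.982% for PZH and 0.546% for Control. No tested kinase circRNA had all PZH values above, or all below, the Control values, against 0.491% above and 0.181% below for all tested circRNAs. Leaving out PZH replicate 3, Control replicate 1 or Control replicate 6 gave 1 above, and leaving out Control replicate 4 gave 1 below.

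Circles of 1 gene that share an end had fold changes of either sign. From the exon 2 acceptor of Map3k3, exons 2 to 5 and exons 2 to 6 (chr11:106096991-106123906) had fold changes of 1.44 and 1.10 (SE 0.66 for the longer; adjusted p = 0.710), and exons 2 to 4 (chr11:106096991-106114283) of 0.20 (SE 0.67). Exons 3 to 6 (chr11:106110744-106123906) and exons 5 to 6 (chr11:106117490-106123906), which share the donor of exons 2 to 6, had -0.86 (SE 0.61) and -0.97 (SE 0.72). Exons 2 to 6 were above 0 in 6 PZH and 4 Control libraries, exons 3 to 6 in 3 PZH and 5 Control libraries, and exons 5 to 6 in 3 PZH and 6 Control libraries. With entries at 0 taken as missing, the fold change of exons 5 to 6 was 0.41. The circles were not tested against one another.

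Of 3 Map2k4 circles that begin at the acceptor of the tested exon 2 to 3 circle, 2 were tested, and both had positive fold changes. The third, with exons 2 to 7, had signal in only 1 library of each group. Exons 2 to 4 (chr11:65719484-65756371) were above 0 in 6 PZH and 3 Control libraries, at 1.28 to 7.61 SRPBM in PZH and 0 to 3.68 in Control (1.39, SE 0.68; adjusted p = 0.654). Map4k2 gave 4 circles from 1 acceptor, the start of exon 4. Those to exon 6 (0.13, SE 0.59) and exon 8 (0.04, SE 0.61), named after values were seen like Map3k3 exons 2 to 4, had fold changes smaller than their SE. Further low circles with negative fold changes and no call were Taok3 exons 9 to 13 (chr5:117209554-117228079; -1.02, SE 0.70; 4 PZH and 5 Control libraries above 0), Cdk19 exons 6 to 8 (chr10:40466638-40469955; -0.89, SE 0.69; 4 PZH and 6 Control libraries) and Cdk13 exons 4 to 7 (chr13:17750257-17765093; -0.65, SE 0.58; 5 PZH and 6 Control libraries). Taok3 is a relative of Taok2, Cdk19 a paralogue of Cdk8 in Mediator, and Cdk13 a partner of cyclin K like Cdk12.

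**Figure D4:**
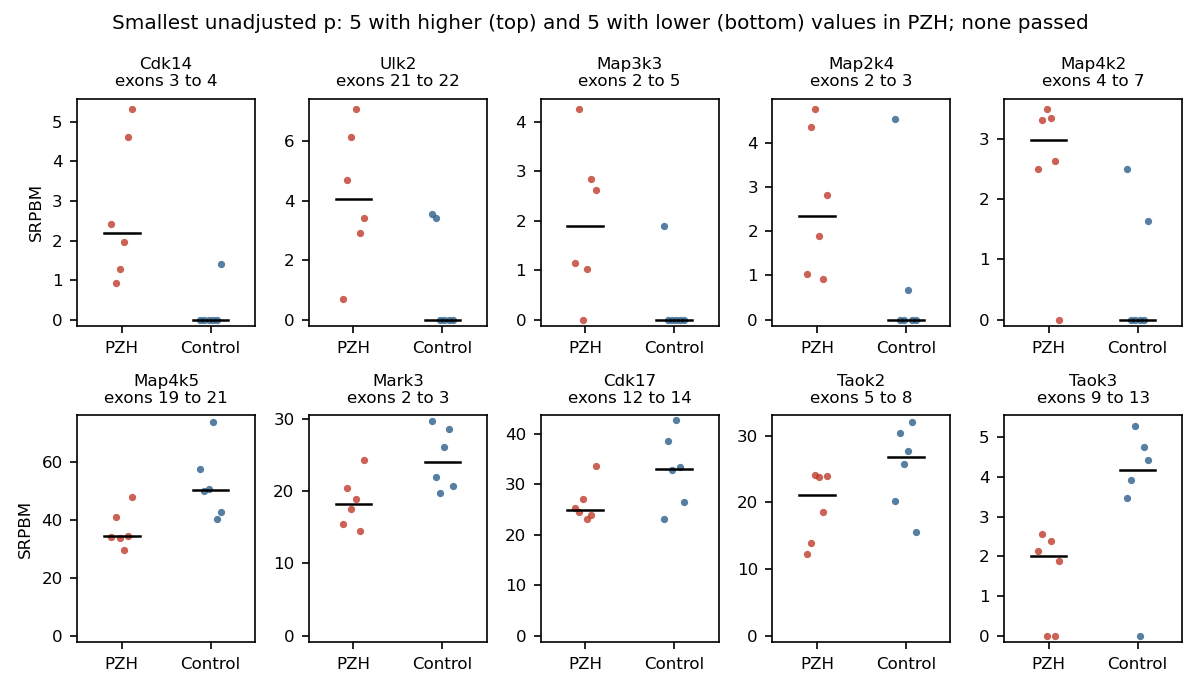
SRPBM (vertical axis) in the 6 PZH libraries (red, left) and 6 Control libraries (blue, right) for the 5 kinase circRNAs with the smallest unadjusted p and higher values in PZH (top row) and the 5 with lower values (bottom row); black lines are medians. In the top row 4 or 5 Control points of each panel lie at 0, and the circles of the bottom row other than that of Taok3 are above 0 in all 12 libraries.

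Summed over all circRNAs of a gene, the circular output of 35 matched genes was tested. At an adjusted p under 0.05, 0 were higher and 0 lower (limma, 2203 host genes tested; 0% of all in each direction). At an unadjusted p under 0.05, 1 was higher, Ulk2, and 1 lower, Map4k5, against 5.04% higher and 3.09% lower over all host genes. In either direction they were 5.71%, against 8.13% of all, and 20 of 35 fold changes were above 0, against 54.7% of all. Ulk2 had 0.68 to 7.06 SRPBM in PZH and 0 to 4.50 in Control, a difference of 1.64 on the log2 scale (SE 0.74; adjusted p = 0.590). Map4k5 had 31.8 to 47.8 in PZH and 40.4 to 75.6 in Control, with -0.47 (SE 0.17; unadjusted p = 0.0118, adjusted p = 0.486). The Map4k5 and Ulk2 circles described above held most of the signal of their genes. Without PZH replicate 3 or 6 or Control replicate 6 the number higher was 0, and without Control replicate 1 or 2 it was 2. Without PZH replicate 6 or Control replicate 6 the number lower was 2.

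The sums of Cdk12, Mark3 and Map4k5 were the highest of the kinase genes. Mark3 had 45.4 ± 5.88 SRPBM in PZH and 48.0 ± 10.96 in Control (mean ± SD of n = 6 each; -0.05, SE 0.17), and its 2 main circles had fold changes of opposite sign. Cdk12 had a log2 fold change of 0.13 (adjusted p = 0.806), with a range of 0.642 to 0.946 for this p over the alternative settings. The Cdk12 fold change was 0.62 (SE 0.66; adjusted p = 0.814) without the circle of the noncoding transcript, at 4.02 ± 2.72 SRPBM in PZH and 2.07 ± 1.11 in Control. Map2k5 had 13.6 to 25.2 SRPBM in PZH and 8.80 to 21.0 in Control (0.55, SE 0.27; adjusted p = 0.619). Map2k4 had 3.17 to 10.4 in PZH and 0 to 8.64 in Control (1.37, SE 0.71; adjusted p = 0.647). Taok2 had 13.7 to 24.1 in PZH and 15.6 to 33.8 in Control (-0.38, SE 0.23), and Csnk1g1 0 to 8.64 in PZH and 2.66 to 7.31 in Control (-1.15, SE 0.73). These groups overlapped in each gene.

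The choice among the circles of a gene was measured as the log2 ratio of its most abundant circRNA to the sum of its other circRNAs. The same small constant, the pseudocount given below, was added to both parts. A library with no signal for a gene therefore entered the test as a ratio of 0, as if both parts were equal. Of 26 matched genes tested, 0 had a higher and 0 a lower ratio at an adjusted p under 0.05 (limma, 1102 genes tested; 0% of all in each direction). At an unadjusted p under 0.05, 2 were higher, against 3.18% of all, and 0 lower, against 3.45%. In either direction they were 7.69%, against 6.62% of all, and 12 of 26 ratio differences were above 0, against 49.8% of all. Cdk14 had a ratio difference of 2.43 (SE 0.79; unadjusted p = 0.00879, adjusted p = 0.629), and Csnk1g1 of 1.25 (SE 0.56; adjusted p = 0.705). The Cdk14 circle of exons 3 to 4 held 50.6% to 100% of the gene's signal in PZH libraries, against 0% in 4 and 100% in 1 of the 5 Control libraries with signal. Control replicate 1 had no signal for Cdk14 and entered at 0. The Csnk1g1 circle of exons 8 to 11 (chr9:66007740-66012854) was above 0 in 3 PZH and 4 Control libraries. PZH replicates 2 and 4 had no signal for Csnk1g1 and entered at 0. In Control libraries the circle held at most 40.7% of the signal, so every Control ratio of Csnk1g1 was below 0. The higher ratio of Csnk1g1 thus rests in part on libraries without signal. Leaving out PZH replicate 2, 4, 5 or 6 or Control replicate 2, 4 or 5 gave 1 higher, and leaving out Control replicate 3 gave 1 lower.

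For the other genes with the smallest p the shares overlapped. Mark3 exons 2 to 3 made up 35.3% to 46.2% of the gene's signal in PZH and 43.4% to 65.0% in Control (ratio difference -0.66, SE 0.34; adjusted p = 0.808). Stk39, which encodes SPAK, a regulator of ion cotransporters, had 30.7% to 77.9% of its signal in exons 2 to 5 in PZH and 60.7% to 92.1% in Control (-0.92, SE 0.59). Map4k2 exons 4 to 6 held 25.9% to 65.9% in PZH and 39.1% to 82.3% in Control (-0.78, SE 0.57). Stk39 had no signal in PZH replicate 6 and Control replicate 1, and Map4k2 had none in Control replicate 4. The shares leave these libraries out, while the ratio tests took them as 0. Map3k3 exons 2 to 6 held 22.7% to 47.2% in PZH and 0% to 50.9% in Control (1.05, SE 0.65).

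Kinase genes often gave several circles. The 55 hosts had a median of 4 circRNAs, against 2 for the 4721 hosts in the table, and 13 (23.6%, against 40.4%) had 1. The 55 are protein-coding by the rule, while the 4721 were counted for any gene type and include the 55. Taok1 had 21 on a transcript of 20 exons, Map2k5 17 (16 on a transcript of 22 exons) and Map3k5 16 on a transcript of 30 exons. The Taok1 circles began most often at exon 2 (5 circles), exon 3 (4) and exon 4 (4), and ended most often at exon 10 (5). In Map2k5, exon 8 was the last exon of 5 circles and the first of 3, and in Map3k5, exon 11 was the first exon of 4 circles and exon 14 the last of 4. The summed level of Taok1 was 8.02 to 28.4 SRPBM in PZH and 15.7 to 21.7 in Control (0.05, SE 0.27), and that of Map3k5 13.6 to 27.2 in PZH and 11.8 to 18.8 in Control (0.14, SE 0.24).

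**Figure D5:**
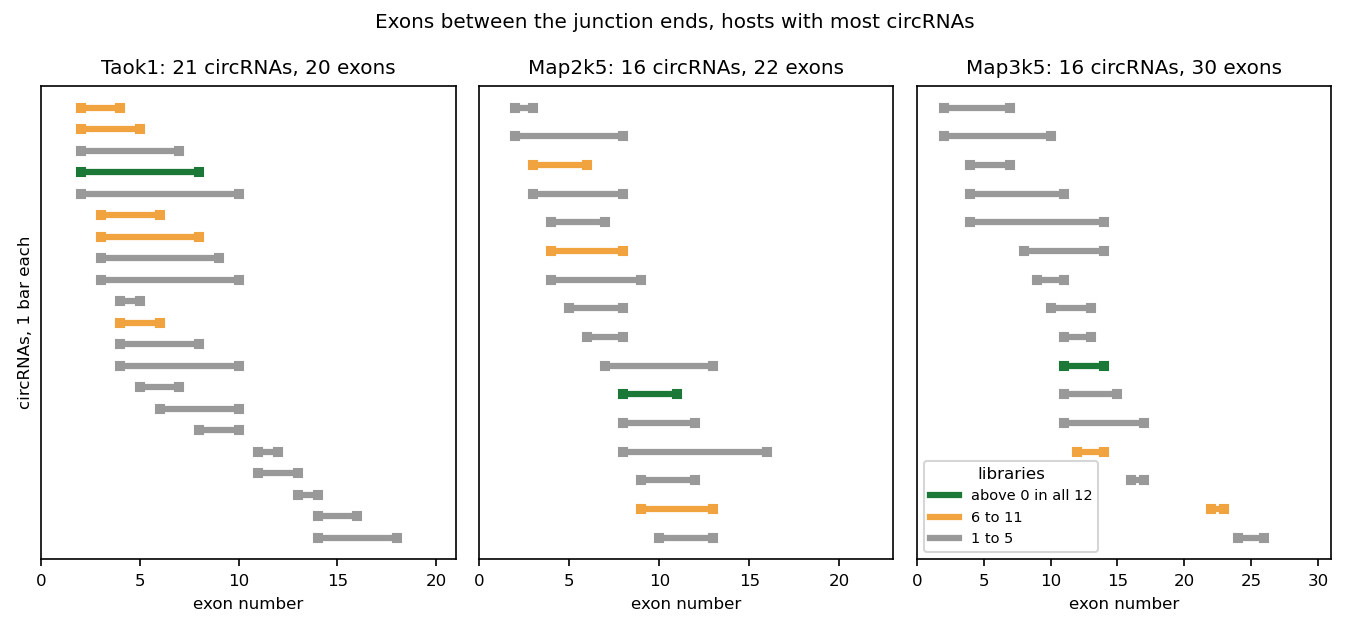
Each bar is 1 circRNA of Taok1, Map2k5 or Map3k5, drawn from its first to its last exon (horizontal axis, exon number in 1 transcript of the gene); colours give the number of libraries above 0. Circles of these genes overlap and share ends, and 1 circle of each gene was above 0 in all 12 libraries.

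In properties that the choice of genes did not use, the 260 kinase circRNAs with both ends on exon boundaries were set beside the 15375 other circRNAs of protein-coding genes with both ends so placed. They spanned a median of 4 exons, against 3, and held a median of 382 bases of exon, against 418. GC content was 45.7%, against 47.3% (medians). The intron before the circle had a median of 7686.5 bases, against 5565, and the intron after it 5255, against 4425. Exon 2 was the first exon in 26.9%, against 24.6%, and 88.5% lay wholly in coding sequence, against 87.2%. The start codon lay inside 9.23%, against 10.8%, and 38.1% had a length divisible by 3, against 37.6%. Among the 78 tested kinase circRNAs and 3703 other tested circRNAs the medians of exon number and flanking introns stood closer or the other way round. They were 3 exons, against 3, an intron before of 8276.5 bases, against 8538, and an intron after of 6384, against 7297. A length divisible by 3 was found in 26.9% of the tested kinase circRNAs, against 36.6%. The median of exon bases held was 334.5, against 390. These are descriptions without a test.

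Other genes of the same pathways were taken from 7 further lists, and of their circles 0 tested circRNAs were higher or lower at an adjusted p under 0.05 (limma). All 7 lists were chosen with earlier results of these data known, so their shares beside the background give no independent support. Among RAF kinases and MAPK regulators, 2 of 22 were higher and 2 lower at an unadjusted p under 0.05. Of all circRNAs tested, 4.55% were higher and 3% lower. Sos2, an exchange factor that activates RAS, had exons 2 to 5 (chr12:69640054-69658078) above 0 in 6 of 6 PZH libraries, at 1.91 to 3.93 SRPBM. It was above 0 in 0 of 6 Control libraries, with an adjusted limma p of 0.102. This circle met the filter of at least 6 libraries only through the PZH libraries. Mapkap1, a subunit of mTORC2, had exons 2 to 4 at 24.8 ± 4.94 SRPBM in PZH and 17.2 ± 3.92 in Control (0.52, SE 0.21; adjusted p = 0.566). The 2 lower ones, chosen for naming after their values were seen, came from Rps6ka3, a ribosomal S6 kinase (-1.90, SE 0.76; adjusted p = 0.566), and Dusp16, a MAPK phosphatase (-1.55, SE 0.65; adjusted p = 0.578).

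In the lists that follow, each with 0 or 1 circRNA past an unadjusted p of 0.05 in a direction, the shares of all circRNAs tested are again 4.55% higher and 3% lower. Among the AGC and PI3K-related kinases, 0 of 22 were higher and 1 lower at an unadjusted p under 0.05: Rps6kb1, which encodes the S6 kinase, with exons 2 to 4 at 77.2 ± 12.4 SRPBM in PZH and 99.7 ± 16.3 in Control (mean ± SD of n = 6 each; adjusted p = 0.551). Among cyclins and CDK partners, 0 of 11 were higher and 1 lower: Ccny, which encodes cyclin Y, the partner of Cdk14, with exons 3 to 7 above 0 in 2 PZH and 6 Control libraries (-1.95, SE 0.64; adjusted p = 0.454). Of other serine/threonine kinases, 1 of 39 was higher and 0 lower: Bub1b, a spindle checkpoint gene, with exons 17 to 19 at 16.0 to 33.6 SRPBM in PZH and 6.503 to 19.0 in Control (0.77, SE 0.25; adjusted p = 0.454). Other Ste20 and Hippo genes had 0 of 27 higher and 1 lower, Cab39l, a scaffold of the kinase LKB1, at 0 to 1.53 SRPBM in PZH and 0 to 4.99 in Control. Mob1a, a Hippo adaptor, was above 0 in 5 PZH and 2 Control libraries (1.24, SE 0.61; adjusted p = 0.654). Of AMPK-related genes 0 of 7, and of autophagy genes 0 of 8, had an unadjusted p under 0.05 in either direction. Snrk, an AMPK relative, had exons 2 to 3 at 94.7 ± 9.98 SRPBM in PZH and 81.1 ± 17.6 in Control (adjusted p = 0.691), and Becn1, an autophagy scaffold, exons 3 to 7 above 0 in 4 PZH and 6 Control libraries (-1.26, SE 0.67). A second circle of each, Snrk exon 3 (1.03, SE 0.55) and a Becn1 circle (-1.06, SE 0.63), had the same sign and no call. The second named circles of the remaining lists, Ccnt2 (-1.09, SE 0.61), Pdpk1 (1.05, SE 0.56) and Tbk1 (-1.42, SE 0.72), and that of Cdk5rap1 (0.25, SE 0.73), had adjusted p of 0.666 to 0.963.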

How the data were processed

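The deposited table gives a signal in SRPBM per circRNA and library, made by the authors. Trizol extraction and a TruSeq RNA kit were used, per the labels' protocols. Per the submitters' processing notes, Trim Galore and STAR were used with mm10/GRCm38. Not given in the sources used here: versions, circRNA caller, filters and SRPBM formula. Depth is known only through the table.

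Host genes and exon numbers were assigned here from GENCODE M21, with exon numbers from 1 matching transcript. A circRNA was tested where at least 6 of 12 libraries were above 0, with limma 3.58.1 (R 4.3.3, variance trend, 2-sided, Benjamini-Hochberg over all tested, threshold 0.05) on log2(SRPBM + 0.636), the pseudocount being the median of the libraries' smallest values. Fold changes are on that scale. The pseudocount pulls changes of low circRNAs towards 0. An entry at 0 among higher values can instead enlarge a fold change or turn its sign, as for Cdk8 exons 2 to 4. Host gene sums and within-host ratios were tested likewise, with the pseudocount added to both parts of a ratio. Tested on simulated data for circRNAs of PZH against Control, the fit recovered 40% of 2-fold and 93% of 4-fold changes and called 4 of 3320 unchanged circRNAs. Changes were simulated only in circRNAs above 0 in all 12 libraries, and every simulated spread came from such circRNAs. The recovery shares therefore do not cover the 57 of 78 tested kinase circRNAs with an entry at 0.

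Named circRNAs were the 10 most abundant, the 10 per direction with the smallest p, each family's most abundant, those seen in at least 5 libraries of 1 group and at most 1 of the other, and the leading host genes, ratios and other-list circRNAs. One circRNA that the rule names is not reported here. The members and lists were chosen with earlier results of these data known. Same-numbered libraries did not deviate together, so the fit without a replicate block is given. Alternatives were other pseudocounts, filters, scalings, library weights, no variance trend, zeros as missing, an exact rank-sum test, membership rules and leaving out each library. Software was pandas 2.3.3, numpy 2.4.6 and matplotlib 3.10.9 under Python 3.11.15.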

Additional observations from a re-analysis of the deposited data

Results flagged for a closer look

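In 9 of 88 groups of 6 libraries looked at (circRNAs and host sums named in the text), the highest or lowest library stood apart from the other 5. For normally distributed values, chance alone sets apart about 1 group in 20. Many of these groups hold entries at 0, and host sums include the named circRNAs, so that rate cannot show an excess here. In 2 of the 9 the other 5 libraries were listed at 0: the circle of Cdk14 exons 3 to 4, with 1.41 SRPBM in 1 Control library, and that of Map3k3 exons 2 to 5, with 1.89 SRPBM in 1 Control library. In PZH, Cdk19 exons 6 to 8 had 6.32 SRPBM in 1 library, against 2.25 in the next, and Map4k2 exons 4 to 7 was listed at 0 in 1 library, against 2.49 in the next. The summed circRNAs of Mark3 reached 56.8 SRPBM in 1 PZH library, against 46.2 in the next. In Control, Map2k4 exons 2 to 3 had 4.54 SRPBM in 1 library, against 0.67 in the next, and Cdk12 exons 7 to 9 had 1.74, against 0.58. The lowest Control library for Camk2d exons 10 to 12 had 17.1 SRPBM, against 29.0 in the next. A different Control library was listed at 0 for Taok3 exons 9 to 13, against 3.47 in the next.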

How the results depend on the processing

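Numbers of kinase circRNAs, host sums and ratios past the adjusted threshold were 0 under each alternative that was run, of which the exact rank-sum test could not have passed the adjustment at its smallest p. Numbers at an unadjusted p under 0.05 moved. Higher circRNAs numbered 5, and 3 with the replicate block. They numbered 0 when all 12 libraries had to be above 0, a filter that left out all 5, each listed at 0 in some Control libraries. With zeros as missing 2 were higher, neither of them among the 5, which had too few Control libraries above 0 to be tested there. Lower circRNAs numbered 1, but 2 with median-of-ratios scaling, summed SRPBM scaling, quantile normalization or library weights, 3 by the exact rank-sum test and 0 without the variance trend. Higher host sums numbered 1, but 2 with no filter or without the variance trend and 0 with the replicate block, and lower host sums numbered 0 without the variance trend. Higher ratios numbered 2, but 1 with a pseudocount of 3 or with the replicate block. The block changed no adjusted call. No pairing by replicate number was seen in the values. Same-number correlations of deviations were -0.12 to 0.03 over 1089 circRNAs, and 0 of 6 libraries correlated best with their own number. Such correlations cannot show that the design had no pairing. Leaving out 1 library in turn gave 2 to 6 higher and 1 to 3 lower circRNAs, 0 to 2 higher and 1 to 2 lower host sums, 1 to 3 higher and 0 to 1 lower ratios, and 0 to 1 non-overlapping circRNAs in each direction. Signs turned for values near 0 or with zeros: Cdk8 exons 2 to 4 (-0.15) and Map3k3 exons 5 to 6 (0.41) with zeros as missing, Map2k1 exons 2 to 5 by rank-sum shift (0.0436), the log2 fold change of Stk3 exons 2 to 4 with library weights (0.0152), and, with summed SRPBM scaling, the log2 fold change of the host sum of Stk39 (-0.000913) and the log2 fold change of the host sum of Taok1 (-0.00124). Leave-one-out ranges crossed 0 for Cdk8 exons 2 to 4 (-0.15 to 0.92), Csnk1g3 exons 2 to 4 (-0.23 to 0.14), Map2k1 exons 2 to 5 (-0.12 to 0.0937), Map3k21 exons 2 to 4 (-0.23 to 0.0715), Map4k3 exons 4 to 6 (-0.16 to 0.0329), Stk3 exons 2 to 4 (-0.15 to 0.11) and the host sums of Map4k2 (-0.18 to 0.86), Mark3 (-0.16 to 0.0192), Stk39 (-0.67 to 0.70) and Taok1 (-0.0670 to 0.28). Apart from the Cdk8 entry at 0, the causes were not tested. Leaving the circle of the noncoding Cdk12 transcript out of the host sums was chosen after seeing the data. Depth limits the low circRNAs: entries at 0 cannot be told from junctions with too few reads.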
